A study of Mus musculus with 8 samples.

Results

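Ifit1, Ifit2 and Ifit3 encode interferon-induced proteins with tetratricopeptide repeats, and these 3 genes were taken by symbol from the 23304 gene symbols of each count table. All 3 passed the filter on low counts, which left 12807 genes for testing. RNA had been sequenced from NIH3T3 cells, a mouse fibroblast line established from embryos, and its 8 libraries carry labels of 4 groups, 2 libraries each. The design sets cells with a CRISPR knockout of ZMYND11, a chromatin protein that reads methylated histone, against WT cells, with and without the type I interferon IFN-β. Libraries labelled KO 2 h stand for knockout cells after 2 h with recombinant mouse IFN-β at 100 units/ml, and those labelled KO 0 h for knockout cells without the agent. Libraries labelled WT 2 h and WT 0 h stand for unedited cells with the same IFN-β treatment and without it. All 4 groups share the source NIH3T3 and the strain entry Swiss albino. Whether the knockout is 1 clone, and whether libraries of a group were grown separately, is not given in the labels, so the p-values below rest on a spread between libraries that may be technical.

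Ifit proteins have no enzymatic activity of their own and act by binding RNA and other proteins. Ifit1 holds the end of RNAs whose cap lacks ribose methylation and keeps them from translation, Ifit2 is known for protecting the mouse brain from neurotropic viruses, and IFIT3 in human cells binds IFIT1 and strengthens its grip on RNA. Their genes lie side by side and are classical targets of ISGF3, a complex with the subunits Stat2 and Irf9 that forms when the interferon receptor (Ifnar1, Ifnar2) signals through Jak1 and Tyk2 and that binds the interferon-stimulated response element (ISRE).

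The promoters are shown first because the members differed in the ISRE core. Each line holds the 250 bases before a RefSeq transcript start on the plus strand of GRCm38.p6, 5′ to 3′, with capitals marking the core, which is TTTC, any 2 bases and TTTC again. Ifit3b is the near-identical copy of Ifit3, listed in the tables as I830012O16Rik.
Ifit1 (chr19:34640639-34640888): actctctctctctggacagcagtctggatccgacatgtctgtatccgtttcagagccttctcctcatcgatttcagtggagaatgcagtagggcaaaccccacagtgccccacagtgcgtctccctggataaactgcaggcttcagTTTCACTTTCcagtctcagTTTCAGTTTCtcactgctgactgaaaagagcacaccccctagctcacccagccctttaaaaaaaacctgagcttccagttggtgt
Ifit2, start 1 (chr19:34550444-34550693): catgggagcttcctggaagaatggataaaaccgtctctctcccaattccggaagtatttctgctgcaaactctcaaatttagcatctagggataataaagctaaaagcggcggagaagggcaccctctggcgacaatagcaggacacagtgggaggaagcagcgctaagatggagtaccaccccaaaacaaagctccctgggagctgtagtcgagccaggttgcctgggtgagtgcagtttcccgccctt
Ifit3 (chr19:34583279-34583528): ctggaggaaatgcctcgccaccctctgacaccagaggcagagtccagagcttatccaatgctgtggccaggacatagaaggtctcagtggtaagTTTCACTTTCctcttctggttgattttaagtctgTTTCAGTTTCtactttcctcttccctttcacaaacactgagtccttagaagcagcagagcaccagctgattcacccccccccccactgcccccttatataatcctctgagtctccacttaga
Ifit3b (chr19:34607707-34607956): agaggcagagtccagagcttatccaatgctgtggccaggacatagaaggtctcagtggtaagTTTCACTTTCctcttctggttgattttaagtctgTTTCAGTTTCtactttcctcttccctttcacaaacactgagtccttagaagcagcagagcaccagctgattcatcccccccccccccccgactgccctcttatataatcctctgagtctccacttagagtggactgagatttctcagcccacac

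The core was searched on both strands in windows that also held the 50 bases after the start. Ifit1 held it at bases -104 to -95 and -85 to -76 before its start, and Ifit3 at -156 to -147 and -122 to -113. Ifit2 has 2 annotated starts, and neither window held the core. A GAS motif, TTCNNNGAA, which reads the same on both strands and overlapped no core, was found in the first Ifit2 window at -241 to -233. Among all 32851 promoter windows of this length in the RefSeq table, 3.44% held the ISRE core, 0.225% held it at least 2 times and 8.3% held the GAS motif. The 274 aligned bases of the Ifit3 and Ifit3b windows were 94.5% identical. Ifit1bl2, a further relative listed as 2010002M12Rik, starts 146 bases from Ifit1 on the opposite strand, so that 245 bases and both cores lie in the windows of both genes. A second annotated Ifit1bl2 start lies 11078 bases from that of Ifit1, and its window shared no base with Ifit1's and held no core. A match describes letters in a window, not a bound site. A window without this exact pattern does not show that the gene lacks a response element, in the window or outside it.

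**Figure D1:**
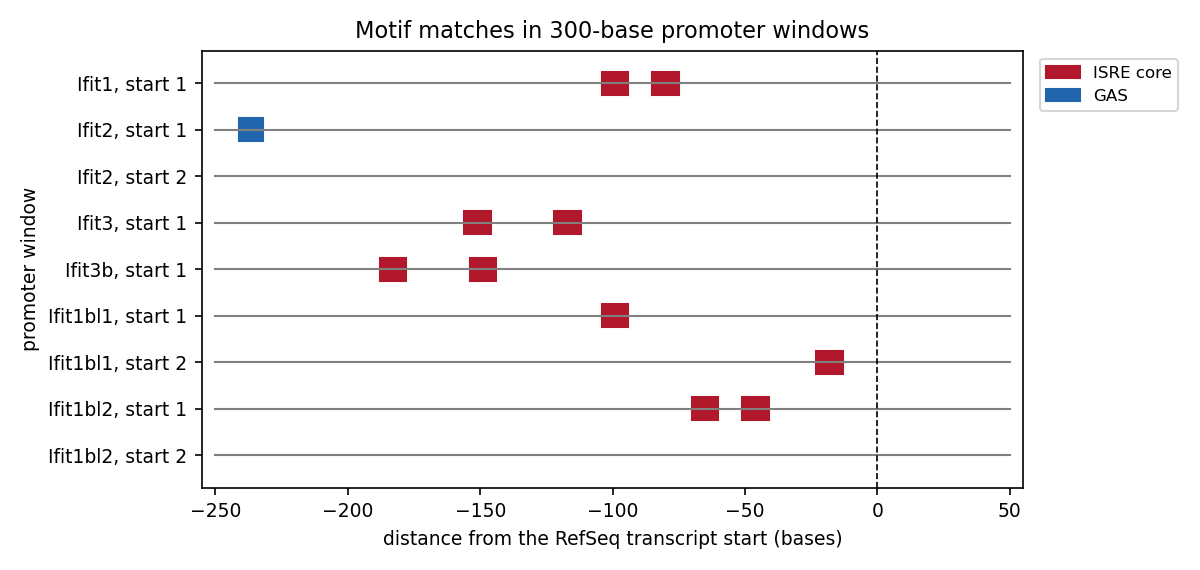
Positions of ISRE core and GAS matches (boxes) in the 300-base promoter windows of the Ifit genes and their relatives, as distance in bases from the RefSeq transcript start (dashed line). Ifit1, Ifit3 and Ifit3b each held 2 ISRE cores, and the 2 Ifit2 windows held none.

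Gene reads summed to 13671013 to 21299120 per library, and 1 read was worth 0.0460 to 0.0700 CPM, the unit of counts scaled to a common library size. KO 0 h replicate 2 stood apart by its 17498 genes with reads, against 14847 to 15945 in the other 7. Zmynd11, the targeted gene, stood at 3.31 and 4.69 CPM in the libraries labelled KO 2 h, 137 and 131 CPM in those labelled KO 0 h, 3.18 and 3.61 CPM in those labelled WT 2 h, and 123 and 120 CPM in those labelled WT 0 h. Its level went with the time label and against the genotype label wherever that was KO 0 h or WT 2 h, so every library is named by its label below. Both groups had the Zmynd11 level that an exchange of these 2 labels would give them; whether the labels were exchanged was not tested. With them exchanged, the comparisons of KO with WT labels below would set IFN-β against no IFN-β within a genotype, and those of 2 h with 0 h labels would set knockout against unedited cells. All 10 listed fibroblast markers had reads in all 4 groups, and their summed level was 19055 to 20604 CPM under KO 2 h labels, 41745 to 42828 under KO 0 h, 18660 to 19788 under WT 2 h and 46143 to 46529 under WT 0 h. The 8 haematopoietic markers summed to 14.6 to 30.0 CPM under KO 2 h labels, 24.8 to 37.4 under KO 0 h, 21.2 to 23.1 under WT 2 h and 18.1 to 19.1 under WT 0 h, with Cd3e at 0 in all libraries. The 6 endothelial markers summed to 12.2 to 14.7 CPM under KO 2 h labels, 3.15 to 5.35 under KO 0 h, 12.5 to 13.9 under WT 2 h and 2.46 to 3.22 under WT 0 h, most of it from Vwf at 2 h, and the 6 epithelial markers to at most 7.56 CPM. In bulk RNA, fewer expressing cells and less RNA per cell cannot be told apart.

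Ifit1 was high under both KO labels and low under both WT labels. It stood at 396 and 380 CPM in the libraries labelled KO 2 h, 196 and 229 in those labelled KO 0 h, 1.73 and 3.95 in those labelled WT 2 h, and 1.22 and 1.38 in those labelled WT 0 h. The 2 WT-labelled groups came closest, with 32 and 71 reads under WT 2 h labels and 25 and 28 reads under WT 0 h labels.

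Ifit2 was expressed in every library and spread over a much narrower range. It stood at 113 and 116 CPM in the libraries labelled KO 2 h, 79.2 and 79.1 in those labelled KO 0 h, 78.1 and 70.1 in those labelled WT 2 h, and 36.7 and 35.6 in those labelled WT 0 h. The groups labelled KO 0 h and WT 2 h nearly touched, while KO 2 h lay above both and WT 0 h below both.

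Ifit3 divided the libraries as Ifit1 did, at lower levels. It stood at 29.0 and 33.3 CPM in the libraries labelled KO 2 h, 26.5 and 23.1 in those labelled KO 0 h, 1.51 and 2.17 in those labelled WT 2 h, and 0.244 and 0.639 in those labelled WT 0 h. The WT 0 h values rest on 5 and 13 reads, against 632 and 476 reads in the libraries labelled KO 2 h. Zmynd11 and Ifit1 or Ifit3 thus ordered the libraries differently: of the groups with much Zmynd11, the one labelled KO 0 h had high Ifit1 and Ifit3 and the one labelled WT 0 h had little of either.

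**Figure D2:**
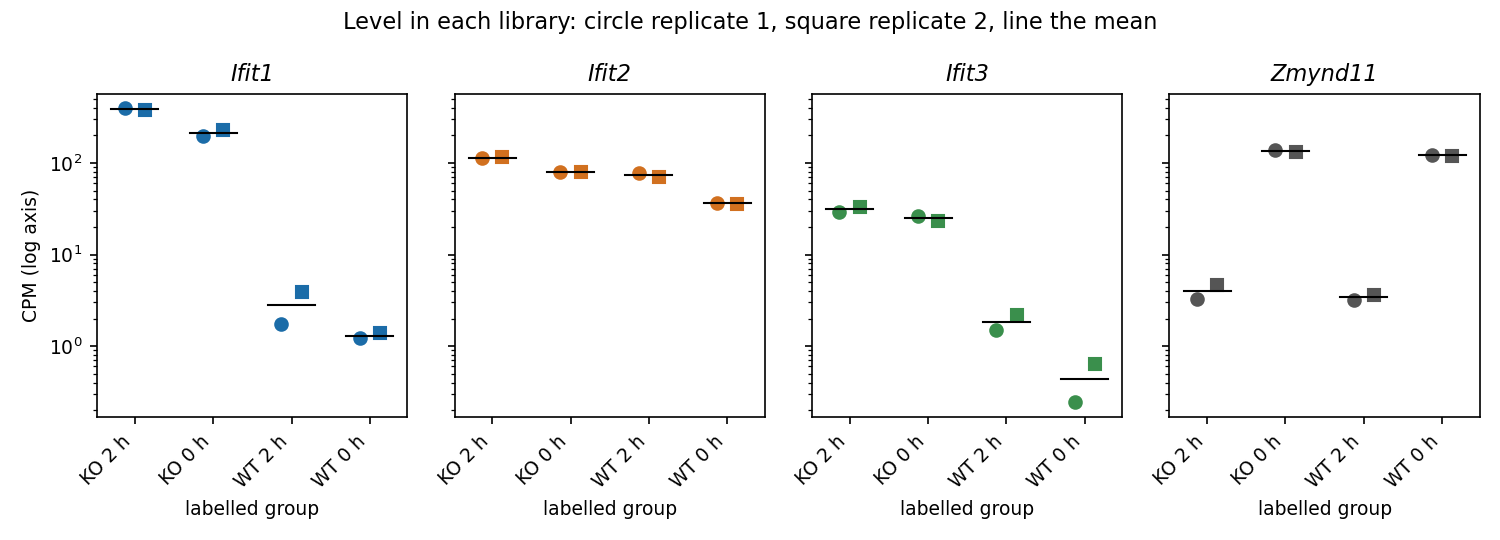
CPM on a log axis of Ifit1, Ifit2, Ifit3 and Zmynd11 in each of the 8 libraries by labelled group (circle, replicate 1; square, replicate 2; line, mean). Ifit1 and Ifit3 separate KO labels from WT labels, Zmynd11 separates 0 h from 2 h labels, and Ifit2 spans only 35.6 to 116 CPM.

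Per kilobase of transcript, the leading member differed between labels. Ifit1 averaged 146 ± 4.35 CPM per kb under KO 2 h labels, 80.0 ± 8.78 under KO 0 h, 1.07 ± 0.591 under WT 2 h and 0.489 ± 0.0411 under WT 0 h (SD, n = 2 each). Ifit2 averaged 30.0 ± 0.664, 20.7 ± 0.0131, 19.4 ± 1.48 and 9.47 ± 0.215 CPM per kb in the same 4 groups, and Ifit3 averaged 17.9 ± 1.74, 14.2 ± 1.39, 1.05 ± 0.266 and 0.253 ± 0.160. The Ifit3 values are uncertain, because 51.2% of the 50-base stretches of its transcript also occur in Ifit3b. Shares and ratios that include Ifit3 carry the same limit. Of the sum of the 3 members, Ifit1 made up 75.3 ± 1.49% under KO 2 h labels, 69.5 ± 3.18% under KO 0 h, 5.0 ± 2.9% under WT 2 h and 4.79 ± 0.410% under WT 0 h. Ifit2 made up 15.5 ± 0.497% and 18.1 ± 1.17% under KO 2 h and KO 0 h labels, against 90.1 ± 4.27% and 92.7 ± 1.98% under WT 2 h and WT 0 h labels. The most abundant member per kilobase was Ifit1 in the 4 KO-labelled libraries and Ifit2 in the 4 WT-labelled ones. The ratio of Ifit1 to Ifit2 CPM was 2.48 to 3.52 in the KO-labelled libraries and 0.0221 to 0.0563 in the WT-labelled ones. Ifit3 to Ifit2 ran from 0.258 to 0.334 in KO-labelled libraries and from 0.00665 to 0.0309 in WT-labelled ones. Ifit1 to Ifit3 differed less between KO and WT labels, at 7.40 to 13.6 in KO-labelled libraries and 1.14 to 5.0 in WT-labelled ones. The value of 5.0 rests on 5 Ifit3 reads in WT 0 h replicate 1.

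**Figure D3:**
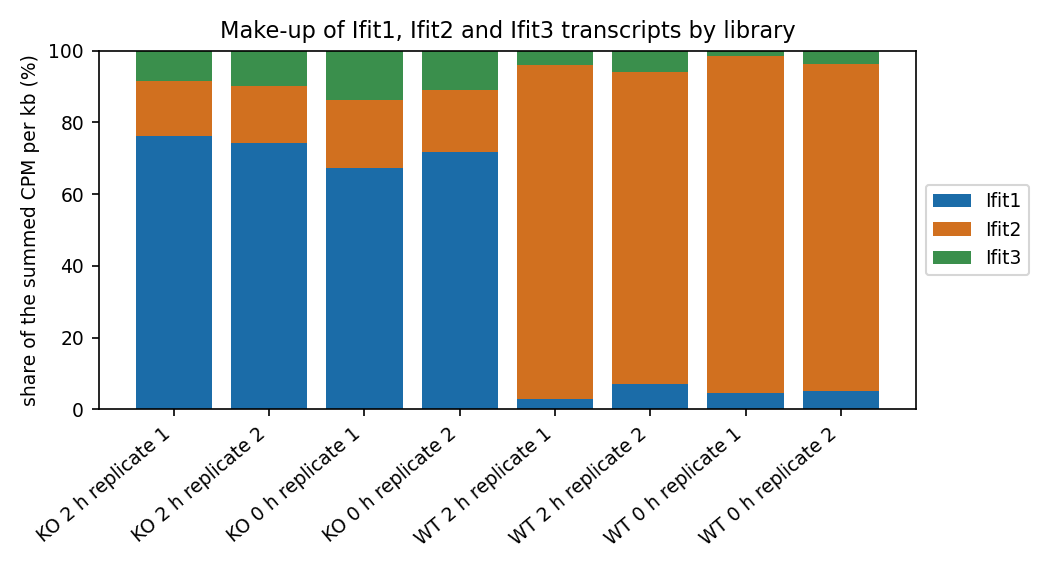
Share of Ifit1, Ifit2 and Ifit3 in their summed CPM per kb of transcript (%), 1 bar per library. Ifit1 takes 67.3 to 76.4% of each KO-labelled bar, and Ifit2 takes 87.1 to 94.1% of each WT-labelled bar. The Ifit3 share is uncertain because its transcript shares sequence with Ifit3b.

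The comparison of KO 0 h with WT 0 h asks, as labelled, what the knockout does without interferon; Zmynd11 was high in both groups, so the same values cannot be told apart from an effect of IFN-β in unedited cells. All 3 members were called higher, in a comparison that called 2.65% of all tested genes higher and 1.27% lower (edgeR quasi-likelihood test, Benjamini-Hochberg adjusted p below 0.05). Ifit1 was 163-fold higher in libraries labelled KO 0 h than in those labelled WT 0 h, a log2 fold change of 7.35 (SE 0.19, adjusted p = 5.14e-15), the 7th highest of 12807. Ifit3 was 55.4-fold higher (log2 5.79, SE 0.25, adjusted p = 3.48e-14), the 18th highest. Ifit2 was 2.19-fold higher (log2 1.13, SE 0.09, adjusted p = 2.03e-09) and ranked 385th. Without WT 0 h replicate 2, which held 13 of that group's 18 Ifit3 reads, the Ifit3 value was 6.60 on the log2 scale. Without WT 0 h replicate 1 it was 5.24. Of the 6 haematopoietic markers tested, none was called here by edgeR or DESeq2, 4 had an unadjusted p below 0.05 and their median log2 fold change was 0.79; their part in the result was not tested.

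After 2 h, KO labels were again above WT labels for all 3 members, where 1.59% of tested genes were called higher and 0.00781% lower. Ifit1 was 137-fold higher in libraries labelled KO 2 h than in those labelled WT 2 h (log2 7.10, SE 0.17, adjusted p = 1.82e-15), the 4th highest of all tested genes. Ifit3 was 16.9-fold higher (log2 4.08, SE 0.20, adjusted p = 2.99e-13) and ranked 22nd, and Ifit2 was 1.54-fold higher (log2 0.63, SE 0.08, adjusted p = 1.85e-05). Both Zmynd11 comparisons between genotype labels missed the threshold, with log2 fold changes of 0.15 at 0 h (adjusted p = 0.364) and 0.19 at 2 h (adjusted p = 1). The Ifit1 value was 7.80 without WT 2 h replicate 2 and 6.61 without WT 2 h replicate 1.

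The 2 h and 0 h labels, which stand for IFN-β, were compared within each genotype label; Zmynd11 was low under both 2 h labels and high under both 0 h labels, against the labels KO 0 h and WT 2 h. Between WT labels, all 3 members were called higher at 2 h than at 0 h, in a comparison that called 30.1% of tested genes higher and 31.1% lower. Ifit3 rose by 2.04 on the log2 scale (SE 0.38, adjusted p = 8.39e-05), Ifit1 by 1.12 (SE 0.32, adjusted p = 0.00649) and Ifit2 by 1.04 (SE 0.09, adjusted p = 7.34e-10). The Ifit1 call rested on the library labelled WT 2 h replicate 2, which had 71 reads against 32 in replicate 1: without it the value was 0.44 (edgeR adjusted p = 0.26, range over all alternatives 1.33e-05 to 0.26). For Ifit3, leaving out WT 0 h replicate 2 gave 2.86. Fibroblast marker sums and Zmynd11 moved with the same labels, as given above, and their part in these differences was not tested. The markers did not move alike: of the 10, edgeR called 8 lower and 1 higher between WT labels. Col1a1 averaged 10526 CPM under WT 0 h labels and 928 under WT 2 h, Fn1 averaged 12069 and 10932, and Thy1 averaged 106 and 128.

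Between KO labels the 2 h minus 0 h differences were smaller, and 30.0% of tested genes were called higher and 31.2% lower. Ifit1 rose by 0.87 (SE 0.11, adjusted p = 3.21e-06) and Ifit2 by 0.53 (SE 0.08, adjusted p = 8.52e-06). Ifit3 stood 0.33 higher under KO 2 h labels (SE 0.14) and missed the threshold with an edgeR adjusted p of 0.0556. That p lay between 0.00378 and 0.253 over the alternatives tried, 11 of which brought it below the threshold. Among these, leaving out KO 0 h replicate 1 gave 0.46, and adding the reads of the copy Ifit3b, an alternative chosen after seeing the data, gave 0.41.

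The 2 remaining pairs of groups differ in both labels. Libraries labelled KO 2 h were above those labelled WT 0 h by 8.22 for Ifit1 (SE 0.19, 298-fold), 6.12 for Ifit3 (SE 0.25, 69.5-fold) and 1.66 for Ifit2 (SE 0.09, 3.17-fold) on the log2 scale, with edgeR adjusted p of 2.07e-16, 2.11e-15 and 1.86e-13, where 30.8% of tested genes were called higher and 31.4% lower. Over left-out libraries the Ifit3 value ran from 5.58 to 6.94, the latter without WT 0 h replicate 2. It was 6.72 with the Ifit3b reads added. Libraries labelled KO 0 h were above those labelled WT 2 h by 6.23 for Ifit1 (SE 0.17, edgeR adjusted p = 3.28e-15) and 3.75 for Ifit3 (SE 0.20, adjusted p = 4.01e-13). There 31.5% of tested genes were called higher and 28.8% lower. Over left-out libraries this Ifit1 value ran from 5.71 to 6.91, the latter without WT 2 h replicate 2. Ifit2 did not pass in that pair, at 0.09 with a 95% interval of -0.08 to 0.27 (adjusted p = 0.344). Ordered by level, all neighbouring groups were thus called apart in the main fit for Ifit1 (KO 2 h, KO 0 h, WT 2 h, WT 0 h). KO 0 h and WT 2 h were not for Ifit2, and KO 2 h and KO 0 h were not for Ifit3. As given above, the Ifit1 call between WT labels was not kept under every alternative. Nor was the Ifit3 miss between KO labels.

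The interaction asks whether the 2 h minus 0 h difference depends on the genotype label. It was negative for each member and called for none by edgeR (2 of 3 at an unadjusted p below 0.05), where 0.133% of tested genes were called in either direction. It was -0.25 for Ifit1 (95% interval -0.97 to 0.48, adjusted p = 0.808), -0.50 for Ifit2 (-0.75 to -0.25, adjusted p = 0.120) and -1.71 for Ifit3 (-2.58 to -0.85, adjusted p = 0.122). For Ifit2 and Ifit3 the unadjusted p were 0.000386 and 0.000447, and DESeq2 called Ifit3 (-1.72, adjusted p = 0.0494). Without a low-count filter edgeR called both Ifit2 (adjusted p = 0.0431) and Ifit3 (adjusted p = 0.00916), and with the Ifit3b reads added it called Ifit3 (adjusted p = 0.0203). Over these and the other alternatives the edgeR and DESeq2 adjusted p ran from 0.0431 to 0.907 for Ifit2 and from 0.00916 to 0.628 for Ifit3. Without WT 2 h replicate 2 the Ifit1 value turned to 0.46, and over left-out libraries Ifit3 ran from -2.53 without WT 0 h replicate 2 to -1.16 without WT 0 h replicate 1. Exchanging the labels KO 0 h and WT 2 h leaves the interaction unchanged by its construction, which does not hold for the comparisons of 2 groups that involve either label.

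**Figure D4:**
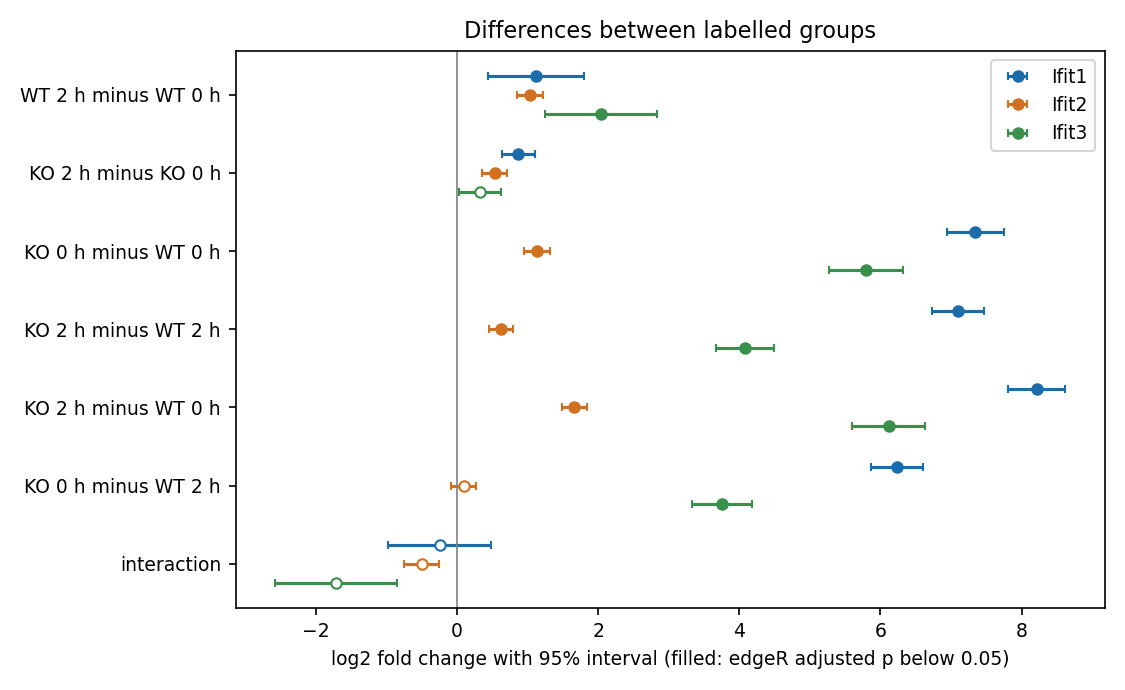
Log2 fold change with 95% interval (bars) of each member in the 6 pairs of labelled groups and the interaction, from the edgeR fit of 8 libraries; filled points have an adjusted p below 0.05. Ifit1 and Ifit3 lie between 3.75 and 8.22 wherever a KO label is set against a WT label, and Ifit2 lies between 0.09 and 1.66.

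The relatives of the 3 genes were read next. Ifit3b (I830012O16Rik) averaged 29.0 CPM under KO 2 h labels, 20.3 under KO 0 h, 0.824 under WT 2 h and 0.122 under WT 0 h. It was higher by 7.30 between KO 0 h and WT 0 h labels (SE 0.30, adjusted p = 1.10e-14) and by 5.13 between KO 2 h and WT 2 h labels (SE 0.22, adjusted p = 1.68e-14). Unlike Ifit3 alone, it passed between KO 2 h and KO 0 h labels, at 0.51 (SE 0.14, adjusted p = 0.00311); the difference between the 2 genes was not tested. Ifit3 and Ifit3b share sequence: 51.2% of the 50-base stretches of the Ifit3 transcript occur in Ifit3b, while Ifit1 and Ifit2 share none with each other or with either. Reads that map to several places made up 14.1 to 17.0% of a library, so the levels of Ifit3 and Ifit3b are uncertain.

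Ifit1bl1 (Gm14446) was low throughout, at 0.925 CPM under KO 2 h labels, 1.99 under KO 0 h, 0.662 under WT 2 h and 0.0246 under WT 0 h. It was not called between KO 2 h and WT 2 h labels, with a log2 fold change of 0.53 (SE 0.59, adjusted p = 1). Ifit1bl2 (2010002M12Rik) averaged 3.54 CPM under KO 2 h labels, 0.333 under KO 0 h and 0.408 under WT 2 h, and had no read under WT 0 h labels. Against 3 reads summed over the WT 0 h group, it was at least 48.3-fold higher under KO 2 h labels. It rose by 3.39 between KO 2 h and KO 0 h labels (SE 0.53, adjusted p = 9.32e-06), where its head-to-head neighbour Ifit1 rose by 0.87. Between KO 0 h and WT 2 h labels it stood at -0.30 (SE 0.70, adjusted p = 0.731), where Ifit1 stood at 6.23. Of these 6 Ifit genes, 6 were called higher between KO 0 h and WT 0 h labels and 5 between KO 2 h and WT 2 h. Of all tested genes 2.65% and 1.59% were called higher there. Between WT 2 h and WT 0 h labels 6 were called higher, and 4 between KO 2 h and KO 0 h. The shares of all tested genes were 30.1% and 30.0% in these time comparisons.

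The genes beside the Ifit cluster were rarely called between genotype labels, as were tested genes in general. Of 13 listed neighbours on chromosome 19, 10 were tested, and 1 was called between KO 0 h and WT 0 h labels, where 2.65% of all tested genes were higher and 1.27% lower: Fas, a death receptor, averaged 13.7 CPM under KO 0 h labels and 7.57 under WT 0 h labels (log2 0.86, SE 0.15, adjusted p = 0.00119). No neighbour was called between KO 2 h and WT 2 h labels by edgeR or by DESeq2, 0 of 10 had an unadjusted p below 0.05, and 1.59% of all tested genes were higher. Between WT 2 h and WT 0 h labels 6 were higher and 2 lower, where 30.1% and 31.1% of all tested genes were, among them Ankrd1, an ankyrin repeat protein of muscle, at 2.92. None of the 12 neighbours with a promoter window held the ISRE core.

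Upstream of the Ifit genes, the ISGF3 subunits Stat2 and Irf9 split by genotype label while the receptor and its kinases were called in neither genotype comparison. Stat2 averaged 332 CPM under KO 2 h labels, 223 under KO 0 h, 27.9 under WT 2 h and 14.7 under WT 0 h, and its difference between KO 0 h and WT 0 h labels was 3.93 (SE 0.10, adjusted p = 8.42e-19). Irf9, the main DNA-binding subunit, stood at 83.7 and 87.4 CPM under KO 2 h labels, 69.4 and 66.5 under KO 0 h, 16.1 and 15.9 under WT 2 h and 8.50 and 6.58 under WT 0 h, a difference of 3.17 at 0 h (SE 0.12) and 2.42 at 2 h (SE 0.11). Ifnar1 differed by 0.02 at 0 h and -0.01 at 2 h between genotype labels, and Jak1 by 0.05 and -0.09. Ifnar2 averaged 33.5 CPM under KO 0 h labels and 28.3 under WT 0 h, and Tyk2 averaged 15.8 and 19.0. Under KO 2 h and WT 2 h labels Ifnar2 averaged 39.5 and 36.0 CPM, and Tyk2 averaged 29.2 and 28.1. Of Ifnar1, Ifnar2, Jak1 and Tyk2, 2 had an unadjusted p below 0.05 at 0 h and 0 at 2 h, and DESeq2 called 0 at either time. Of these 6 genes 2 were called higher in each genotype comparison, where 2.65% of all tested genes were at 0 h and 1.59% at 2 h. The median of the 6 was 0.15 at 0 h and 0.10 at 2 h, with medians of 0.01 and -0.01 over all tested genes.

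Transcripts of the ligands were scarce. None of 15 type I interferon genes passed the filter, and their summed level was 0.0552 to 1.20 CPM per library. Ifnb1, the gene of IFN-β, had 2 reads in 1 library labelled KO 2 h and none in the other 7, where a count of 0 allows up to 0.138 to 0.200 CPM.

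**Figure D5:**
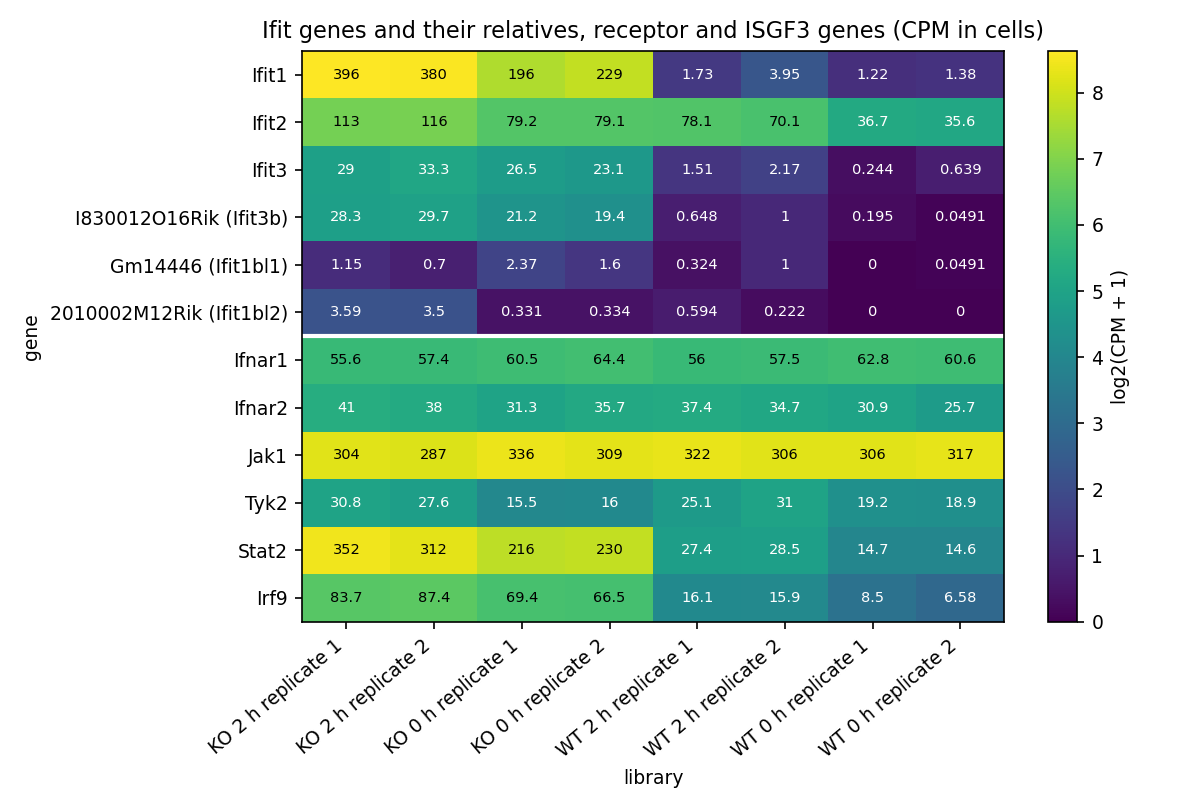
Level of the Ifit genes and their relatives (above the white line) and of the interferon receptor, kinase and ISGF3 genes (below it) in each library; colour is log2(CPM + 1) and the printed value is CPM. Stat2 and Irf9 are higher in the 4 KO-labelled libraries, and Ifnar1 stays between 55.6 and 64.4 CPM.

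Other interferon-induced antiviral genes were set beside the members. Of 30 listed, 27 were tested, and 26 were called higher between KO 0 h and WT 0 h labels, where 2.65% of all tested genes were. The median log2 fold change of the 27 was 3.29, and Isg20 was not called. Ifit1, at 7.35, lay between Mx2 at 8.42 (SE 0.33), an antiviral GTPase, and Usp18 at 6.98 (SE 0.19), the protease that removes Isg15. Mx1 followed at 5.91, Rtp4 at 5.21 and Oasl2 at 5.19, and Ifit2, at 1.13, was below the list's median. Between KO 2 h and WT 2 h labels 25 of 27 were called higher, all but Oasl1 and Zbp1, where 1.59% of all tested genes were. The median of the 27 was 2.75 there. Mx2 led with 7.40, followed by Usp18 at 5.16, Mx1 at 4.54, Rsad2 at 4.51 and Isg15 at 4.35. The libraries labelled WT 2 h held only 3 to 8 reads of Mx2, 1 to 3 of Mx1 and 2 to 3 of Rsad2. Those labelled WT 0 h held 0 to 4 of Mx2 and 1 to 2 of Mx1. The sizes and order of these changes are therefore imprecise.

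Between time labels the calls went both ways. Between WT 2 h and WT 0 h labels 10 were called higher and 5 lower, where 30.1% and 31.1% of all tested genes were, so that the share called is near the background. Between KO 2 h and KO 0 h labels 14 were higher and 8 lower, where 30.0% and 31.2% of all tested genes were. Usp18 rose by 3.01 between WT labels, and Ifi44, an interferon-induced cytosolic protein, fell by 3.22 between WT labels and fell by 4.06 between KO labels. Oas1a, a sensor of double-stranded RNA, rose by 2.18 between WT labels and by 2.70 between KO labels. Libraries labelled WT 0 h held only 7 to 9 reads of Usp18 and 8 to 13 of Oas1a. Ifi44 had 3 reads in each library labelled WT 2 h, so the sizes of these changes between WT labels are imprecise. The count of 5 was 2 without WT 2 h replicate 2 and 3 in 6 further alternatives, and the count of 8 was 5 without KO 0 h replicate 2 or without KO 2 h replicate 2. In the interaction 3 of 27 were called by edgeR, where 0.133% of all tested genes were called in either direction. These were Oas3 at 2.48 (adjusted p = 0.0216), Usp18 at -1.82 (adjusted p = 0.0179) and Parp14 at -1.13 (adjusted p = 0.00820). No gene of the list was called there without WT 0 h replicate 2 or without WT 2 h replicate 1. Of 22 genes of the list with a promoter window, 10 held the ISRE core, against 3.99% of all 27025 genes with a window.

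Enzymes that make or mark the cap that Ifit1 reads, and the translation factor eIF3 that Ifit proteins are known to bind, were seldom called between genotype labels, where 2.65% of all tested genes were higher and 1.27% lower at 0 h and 1.59% were higher at 2 h. Among 8 cap enzymes, Ftsjd2 (Cmtr1), which methylates the first transcribed nucleotide, averaged 114 CPM under KO 2 h labels and 82.1 under WT 2 h labels and was the 1 called (log2 0.48, SE 0.08, adjusted p = 0.000757). Without WT 2 h replicate 1 no cap enzyme was called there. Ftsjd1 (Cmtr2), which methylates the second nucleotide, was the 1 called between KO 0 h and WT 0 h labels, at -0.42 (SE 0.11, adjusted p = 0.0404), a call lost under 6 alternatives, among them without WT 0 h replicate 1, WT 0 h replicate 2, KO 0 h replicate 2, WT 2 h replicate 1 or WT 2 h replicate 2. Rnmt, the cap guanine methyltransferase, rose by 0.84 between WT 2 h and WT 0 h labels and by 0.72 between KO 2 h and KO 0 h labels. Of 12 tested eIF3 subunits none was called at either time between genotype labels by edgeR or DESeq2. An unadjusted p below 0.05 was found for 3 of them at 0 h and for 0 at 2 h, and 1 was called at 0 h without KO 0 h replicate 1 and 1 without KO 0 h replicate 2. Between time labels 8 were lower and 2 higher at 2 h under both genotype labels, against 31.1% lower and 30.1% higher over all tested genes between WT labels and 31.2% and 30.0% between KO labels. Eif3e fell by 1.20 between WT labels and fell by 1.39 between KO labels.

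Across the 8 libraries, the log2 CPM of Ifit1 and Ifit3 ran closest (Pearson r = 0.978), with 0.867 for Ifit2 and Ifit3 and 0.798 for Ifit1 and Ifit2. These are descriptions over 8 libraries that share 4 groups. The 5 genes whose pattern was most like Ifit1 were Stat2 (r = 0.994), Helz2 (0.994), Mx2 (0.993), Parp9 (0.993) and Trim25 (0.992). Those most like Ifit3 were Myd88 (0.993), Irgm1 (0.989), Dtx3l (0.988), Gbp3 (0.987) and Trim21 (0.986). Ifit2 had a different set: Apol10b (0.992), Casp4 (0.990), Trim12c (0.987), Uba7 (0.987) and Map3k8 (0.987). Apol10b averaged 7.55 CPM under KO 2 h labels, 4.78 under KO 0 h, 4.73 under WT 2 h and 2.20 under WT 0 h, and Casp4, an inflammatory caspase, averaged 27.3, 20.3, 17.0 and 10.2. In Apol10b the KO 0 h and WT 2 h means were nearly equal, as in Ifit2. Helz2, from the genes most like Ifit1, averaged 403 and 223 CPM under KO 2 h and KO 0 h labels, against 37.5 and 22.8 CPM under WT 2 h and WT 0 h labels.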

How the data were processed

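RNA of 8 NIH3T3 libraries was sequenced in pairs. The authors deposited raw counts per gene symbol, 1 table per library. The mm9 build, STAR 2.5.2b, HTSeq and bcl2fastq 2.15 are named, per the submitters' processing notes. How these tools were run, against which gene models and with which strand option was not given in the sources used here, and the extraction protocol speaks of embryonic fibroblasts where the source field names NIH3T3. The summary lines of each table, 36.9 to 43.2% of reads, were left out.

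Counts were fitted with edgeR 4.0.16 in R 4.3.3: filterByExpr (minimum count 10, minimum total 15), TMM scaling, 1 coefficient per labelled group over 8 libraries, 4 residual degrees of freedom and the robust quasi-likelihood test. The biological coefficient of variation was 6.74%. Replicates differed by more than counting noise (chi-square per degree of freedom 3.04 to 9.64). Calls used a Benjamini-Hochberg adjusted p below 0.05 over 12807 genes. Intervals and count limits, with a floor of 3 reads, cover counting error and library spread only. The members, lists and tests were chosen with earlier results of these data known. Named genes are the members, Zmynd11, the relatives, receptor and ISGF3 genes, up to 5 members of other lists by size of change, and the 5 genes most correlated with each member (log2 CPM, prior count 2), besides genes named because a count of calls turned on them. Alternatives were RLE factors, library size alone, DESeq2 1.42.0, other filters, fits of only the 4 libraries compared, a replicate block, summed Ifit3 and Ifit3b reads, and leaving out each library. The fit was tested on simulated counts. Promoters are from RefSeq (GRCm38.p6), transcript lengths from the curated RefSeq transcripts in the GENCODE annotation of GRCm38; neither is the build of the counts. One interferon-pathway list is given without 1 gene, which is not reported here.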

Additional observations from a re-analysis of the deposited data

How the results depend on the processing

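Of 319 member values recomputed under alternatives, 300 kept direction and side of the threshold, 1 lost its call, 15 gained one and 3 changed sign, none of the 3 called. The lost call was Ifit1 between WT 2 h and WT 0 h labels, 0.44 to 1.64 (log2) over left-out libraries. Ifit3 between KO 2 h and KO 0 h labels passed with RLE factors (0.34), library size alone (0.48), no filter (0.32), only its 4 libraries (0.35) and Ifit3b added (0.41), and spanned 0.23 to 0.46 over left-out libraries. Ifit2 between KO 0 h and WT 2 h labels turned to -0.066 with library size alone and spanned -0.012 to 0.14 over left-out libraries. In the interaction, Ifit2 passed without a filter (-0.49), and Ifit3 with DESeq2 (-1.72), without a filter (-1.71) and with Ifit3b added (-1.81). Over left-out libraries the interaction spanned -0.74 to 0.46 for Ifit1, -0.58 to -0.44 for Ifit2 and -2.53 to -1.16 for Ifit3; the positive Ifit1 value came without WT 2 h replicate 2. The causes were not tested. Genes called between KO 0 h and WT 0 h labels numbered 502, 809 without a filter and 174 to 1073 over left-out libraries (174 without WT 0 h replicate 1, 191 without WT 0 h replicate 2, 1073 without KO 0 h replicate 1). Interaction calls numbered 17, 33 with DESeq2, 113 without a filter and 6 to 91 over left-out libraries (6 without WT 2 h replicate 1, 9 without WT 0 h replicate 2, 30 without KO 0 h replicate 2, 35 without KO 2 h replicate 2, 91 without KO 0 h replicate 1). Where a group kept 1 library, it was assumed to vary like the others. Library size alone moved the median of all genes by 0.14, 0.15, 0.13 and -0.16 in WT 2 h minus WT 0 h, KO 2 h minus KO 0 h, KO 2 h minus WT 0 h and KO 0 h minus WT 2 h, and the share of calls that were higher to 61.2%, 61.4%, 60.1% and 38.4%, against 49.2%, 49.0%, 49.5% and 52.2% with TMM; between KO 0 h and WT 0 h labels it gave 55.4%, against 67.5%. The replicate numbers are shared between groups but the labels do not say that they pair samples, and same-numbered deviations correlated at -0.0533 to -0.00530. A replicate block gave 322 calls between KO 0 h and WT 0 h labels and changed no member's call. The Ifit3 baseline under WT 0 h labels rests on 5 and 13 reads, which limits its precision.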
